A study of Mus musculus with 4 samples.

Results

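MHC class I molecules show peptides from inside the cell to CD8 T cells and natural killer cells. Proteasomes cut proteins into peptides, the TAP transporter carries these into the endoplasmic reticulum, and tapasin helps to load them on a heavy chain paired with beta-2-microglobulin. Interferon gamma raises many of these genes, exchanges the catalytic subunits of the proteasome for those of the immunoproteasome and acts in part through the transactivator NLRC5, which is why the pathway is often followed in inflamed gut. The 10 genes described here were taken by name from a table of 48526 mouse gene identifiers and not by their values: the heavy chains H2-K1 and H2-D1, the light chain B2m, the transporter subunits Tap1 and Tap2, tapasin (Tapbp), the immunoproteasome subunits Psmb8, Psmb9 and Psmb10, and Nlrc5. All 10 were found in the table, and all 10 passed the filter on low values.

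RNA was sequenced from lamina propria mononuclear cells (LPMCs), a preparation of immune cells from the connective tissue below the gut lining, after CD4 T cells had been transferred into mice. In 2 samples, called WT here, the transferred CD4 cells were wild type and the labels record pronounced colitis. In the other 2, called DKO, the transferred cells lacked both Hobit and Blimp, a pair of zinc finger repressors that act in T cells resident in tissues, and colitis is recorded as mild. The deletions are labelled for the transferred cells, beside which a sample can hold cells of the host, and the sources used here do not give strain, age or sex of the recipients. Transfer genotype and severity of colitis go together in these samples, so they cannot be told apart. The labels call the 2 samples of a group biological replicates but do not tie them to animals, and the p-values therefore reflect how far these particular samples differ, which may be technical. The comparison asks how expression in the lamina propria differs when the transferred CD4 cells lack these regulators.

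Values are regularized log2 expression (rlog), in which 1 unit is a doubling and differences of genes with few reads are pulled towards 0. Sequencing depth cannot be read from such values and is unknown. Per sample, the median over the 13528 genes tested lay between 8.33 and 8.35. Prdm1, which encodes Blimp, was at 11.53 and 11.43 in WT and at 11.37 and 11.43 in DKO, with overlapping groups, and Zfp683, which encodes Hobit, was under the filter at 3.53 and 3.81 in WT and 3.29 and 3.38 in DKO. Cells other than the transferred ones can express both, so these values do not check the labels. Defining markers of leukocytes and T cells were present, with Ptprc at 14.02 to 14.26 and Cd3e at 10.59 to 11.04. Of 6 B and plasma cell markers 5 were under the filter. Epithelial, fibroblast and endothelial markers were detected too, so the preparations were not pure leukocytes.

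7 of the 10 genes lie in the MHC on chromosome 17 (GRCm38), where Psmb9 (34181987 to 34187764), Tap1 (34187553 to 34197225), Psmb8 (34197721 to 34201454) and Tap2 (34203527 to 34216321) follow each other. Tapbp (33915899 to 33929292) and H2-K1 (33996017 to 34000347) lie before this cluster and H2-D1 (35262730 to 35267499) after it. B2m is on chromosome 2 (122147686 to 122153083), and Nlrc5 (94434356 to 94527272) and Psmb10 (105935735 to 105938444) are on chromosome 8. Exons of Psmb9 and Tap1 overlap on opposite strands at their shared start. The libraries were stranded, but the sources used here do not say whether strand was used in counting, so reads in that overlap may not be assigned to the right gene.

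The sequences before 4 of the start sites are shown because the heavy chains, the light chain and the shared Psmb9 and Tap1 start are where interferon signals are known to reach this pathway. RefSeq windows (GRCm38.p6) matched 8 of the 10 genes. Tap2 and Nlrc5 had none. Each line is read 5′ to 3′ on the strand of the named gene and ends at the base before its RefSeq start, for H2-K1 one of a pair of listed starts. Capitals mark matches, on either strand, to an interferon response core (GAAANNGAA or GAANNGAAA), a CRE-like box (TGACGC), a kappaB palindrome (GGGATTCCC) or a CCAAT box (CCAAT). A gamma-activated site (TTCNNNGAA) and another kappaB form (GGGANTTCC) were also searched. The H2-K1 line is chr17:34000348-34000497 (minus strand), the H2-D1 line chr17:35262894-35263093 (plus), the B2m line chr2:122147487-122147686 (plus), and the Tap1 line chr17:34187331-34187555 (plus), which holds all 225 bases between the RefSeq starts of Psmb9 and Tap1.
H2-K1: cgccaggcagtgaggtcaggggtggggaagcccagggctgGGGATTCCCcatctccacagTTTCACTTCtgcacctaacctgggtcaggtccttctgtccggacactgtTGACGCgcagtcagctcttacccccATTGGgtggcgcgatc
H2-D1: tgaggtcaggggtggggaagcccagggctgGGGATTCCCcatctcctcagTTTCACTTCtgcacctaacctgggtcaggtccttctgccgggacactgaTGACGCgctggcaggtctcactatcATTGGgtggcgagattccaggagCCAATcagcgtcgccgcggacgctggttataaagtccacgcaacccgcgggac
B2m: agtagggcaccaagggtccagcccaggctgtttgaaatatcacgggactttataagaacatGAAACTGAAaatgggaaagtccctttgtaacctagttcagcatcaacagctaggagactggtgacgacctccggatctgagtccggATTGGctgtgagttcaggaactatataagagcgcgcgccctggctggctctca
Tap1: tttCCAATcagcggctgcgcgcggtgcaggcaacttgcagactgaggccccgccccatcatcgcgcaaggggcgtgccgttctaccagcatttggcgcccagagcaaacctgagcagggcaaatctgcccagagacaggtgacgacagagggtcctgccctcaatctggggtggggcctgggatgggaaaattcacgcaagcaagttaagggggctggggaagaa

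The heavy chain lines carry the same 4 kinds of box in the same order, and over the best local match of their 250-base windows 161 of 177 bases were identical (91.0%). The kappaB palindrome was found in 0.301% of all 32851 RefSeq windows over the same 250 bases, and the core GAANNGAAA in 6.31%. Both were searched after the windows had been seen. GAAANNGAA, in 7.13% of all windows, was matched in B2m, from -139 to -131 relative to the start, and TGACGC, in 6.12%, in H2-K1 and H2-D1. TTCNNNGAA (7.02%) was matched in Psmb8 and GGGANTTCC (1.43%) in none of the 8 genes. Longer kappaB forms were not searched, so the lack of a match does not show that B2m or another gene lacks a kappaB site. CCAAT was matched in 6 of the 8 genes and in 33.9% of all windows. For Tap1, Psmb9 and Tapbp it was the only motif matched, so the Tap1 line holds no interferon response core. A match describes the letters only.

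Transcripts of the class I pathway differed little between the groups. No member passed the test, and no estimate as reported reached 0.2 on the log2 scale in either direction. The same held for the estimates of 69.1% of all tested genes, so small estimates were not particular to these members. With quantile normalization Nlrc5 was at 0.24. Heavy chains and light chain were among the most abundant transcripts in all 4 samples, the transporter and immunoproteasome genes had estimates slightly under 0 (except Tap1 with quantile normalization), and that of Nlrc5 was slightly over 0. In limma with Benjamini-Hochberg adjustment over all 13528 genes, 0 of the 10 were called and 0 had an unadjusted p under 0.05, against 14.8% of all tested genes called (9.92% rose and 4.85% fell). The members' log2 fold changes, DKO minus WT, ran from -0.18 to 0.17 with a median of -0.098, beside a median of -0.022 over all tested genes. The groups did not overlap for 6 members, 5 lower and 1 higher in DKO, against 55.3% of all genes (30.3% lower and 25.0% higher), so that count stands near the background. The 95% intervals of the 10 differences ran at their widest from -0.45 (B2m) to 0.36 (Nlrc5), that is from a fold of 0.731 to one of 1.28.

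**Figure D1:**
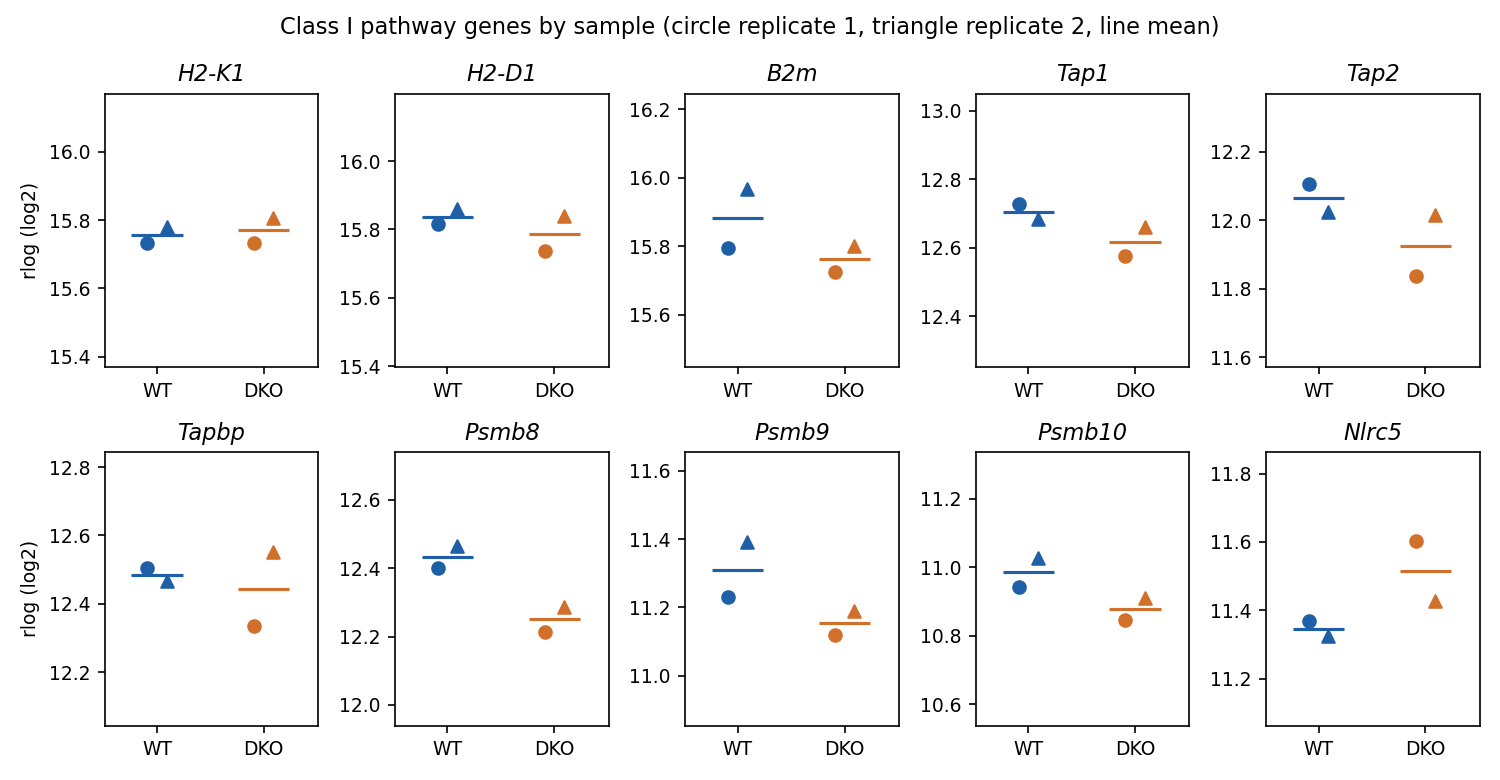
Rlog value (log2 scale, y axis) of each class I pathway gene in the 2 WT and 2 DKO samples; circles are replicate 1, triangles replicate 2 and lines group means, and every panel spans the same number of log2 units. The DKO circle is the lowest point in 9 of the 10 panels (for H2-K1 by less than the second decimal), and the groups are apart in Tap1, Tap2, Psmb8, Psmb9, Psmb10 and Nlrc5.

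The heavy chain H2-K1, which presents peptides to CD8 T cells, stood at 15.73 and 15.78 in WT and at 15.73 and 15.81 in DKO. The groups overlapped, and the lowest WT and DKO values were equal to 2 decimals. The log2 fold change was 0.014 (SE 0.146, 95% interval -0.31 to 0.33, adjusted p = 0.972 in limma). H2-D1, the second classical heavy chain, was at 15.82 and 15.86 in WT and at 15.74 and 15.84 in DKO. Its groups overlapped as well, with a log2 fold change of -0.050 (95% interval -0.38 to 0.28). B2m, the light chain that every class I heavy chain needs to reach the cell surface, was at 15.80 and 15.97 in WT and at 15.73 and 15.80 in DKO. WT replicate 2 was above the other samples, and the difference of -0.12 (95% interval -0.45 to 0.22, adjusted p = 0.688 in limma) was about the size of the SD between the WT samples (0.121).

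Reads of the heavy chains can be hard to assign. Of the 50-base words in the longest coding transcript of H2-D1 14.3% also occur in transcripts of other genes, first among them H2-Q1, H2-Q7, H2-Q6 and H2-K1, and for H2-K1 the share was 8.79%. The share was 0 for B2m, Nlrc5 and the immunoproteasome genes, and at most 2.00% (Tapbp) for the others. The sources used here give neither the treatment of reads with several matches nor the MHC haplotype of the mice. The part of either in the heavy chain values was not tested.

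Tap1 and Tap2 together form the peptide transporter. Tap1 was at 12.73 and 12.68 in WT and at 12.58 and 12.66 in DKO, and Tap2 at 12.11 and 12.03 in WT and at 11.84 and 12.02 in DKO. Both DKO values lay under both WT values for each gene, but DKO replicate 2 was close to the lower WT sample. The log2 fold changes were -0.088 for Tap1 (95% interval -0.28 to 0.11) and -0.14 for Tap2 (95% interval -0.34 to 0.060, adjusted p = 0.373 in limma). Tapbp, which holds empty class I molecules at the transporter, was at 12.50 and 12.47 in WT and at 12.33 and 12.55 in DKO. Its DKO samples lay on either side of both WT samples, and the difference was -0.041 (95% interval -0.25 to 0.17).

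For each of the 3 immunoproteasome genes both DKO samples lay under both WT samples. The same held for 3 of 3 constitutive catalytic subunits, 10 of 16 other genes of the proteasome core and its assembly, and 30.3% of all tested genes. Psmb8, the inducible chymotrypsin-like subunit, was at 12.40 and 12.46 in WT and at 12.21 and 12.29 in DKO. It had the smallest p of all members, with a log2 fold change of -0.18 (SE 0.0851, 95% interval -0.37 to 0.0044, adjusted p = 0.20 in limma), a fold of 0.881. Psmb9, which replaces the caspase-like subunit, was at 11.23 and 11.39 in WT and at 11.12 and 11.19 in DKO (log2 fold change -0.16, 95% interval -0.34 to 0.032). Psmb10, which replaces the trypsin-like subunit, was at 10.94 and 11.03 in WT and at 10.85 and 10.91 in DKO (log2 fold change -0.11, 95% interval -0.28 to 0.067). None of these differences passed the test.

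Nlrc5, the transactivator of class I genes, was higher in DKO, at 11.60 and 11.43 against 11.37 and 11.32 in WT. DKO replicate 1 stood above the other 3 samples, which lay within about 0.1 of each other. The log2 fold change was 0.17 (SE 0.0862, 95% interval -0.022 to 0.36, adjusted p = 0.25 in limma). Nlrc5 was the 1 member whose call depended on a sample: without DKO replicate 2 the difference was 0.25 (adjusted p = 0.0448 in limma), in a fit whose spread rests on the WT samples. Without DKO replicate 1 it was 0.081 (adjusted p = 0.672 in limma).

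**Figure D2:**
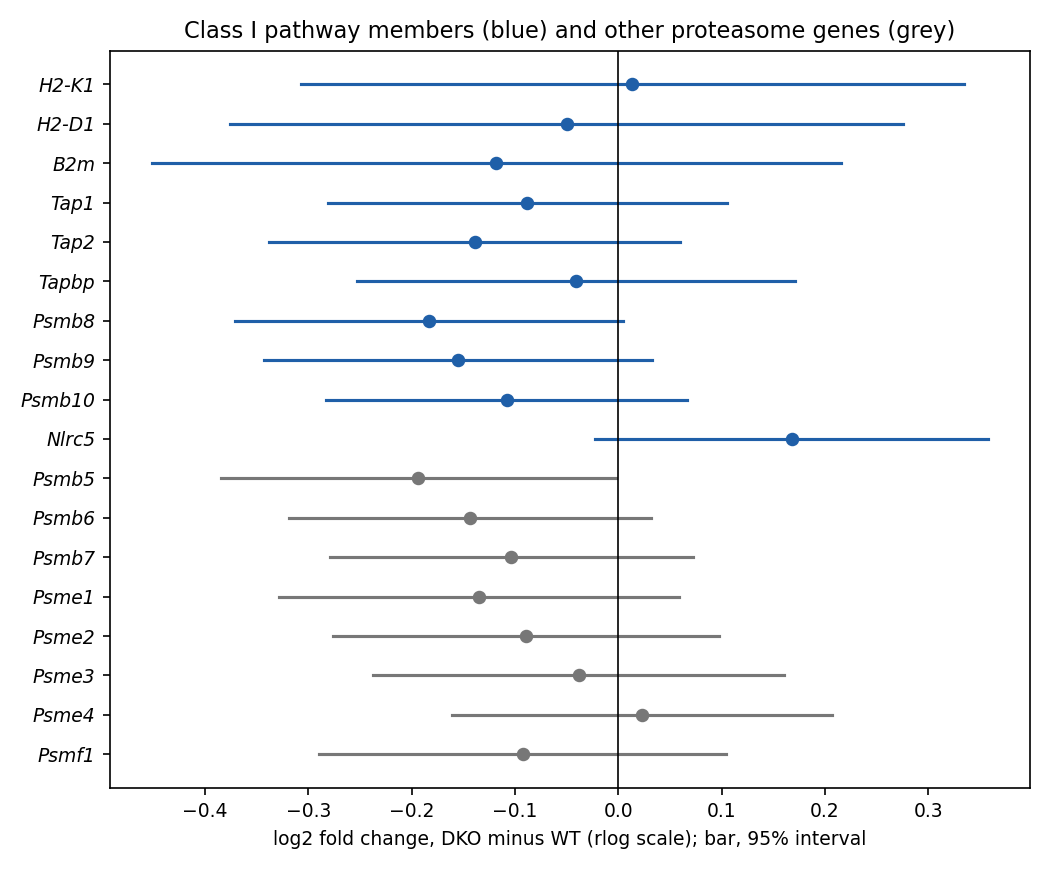
Log2 fold change (x axis, DKO minus WT on the rlog scale) with its 95% interval from limma for the 10 class I pathway genes (blue) and for the constitutive catalytic subunits, activators and inhibitor of the proteasome (grey). Every blue interval includes 0, from -0.45 at the lowest end to 0.36 at the highest.

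Levels can be compared between genes only per length, here as rlog minus the log2 of exon length in kilobases. On that scale B2m had a mean of 16.04 over the 4 samples and ranked 4 of 13507 genes, followed by H2-D1 (14.45, rank 18) and H2-K1 (14.21, rank 21). The ranges of these 3 over the samples did not overlap, although H2-D1 and H2-K1 differed by 0.24 only and share sequence. Tapbp (10.60) and Psmb8 (10.58) came next and overlapped, then Tap1 (10.21), Psmb10 (10.16) and Tap2 (10.08), each overlapping the next. Psmb9 (9.36) and Nlrc5 (8.34) were lower, apart from their neighbours, and Nlrc5 ranked 2322. Annotated exons that are not used here would lower these levels, so the order is approximate.

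Whether the inducible subunits moved apart from the constitutive ones they replace was followed as the difference of their rlog values within a sample, in which gene length cancels between groups. Psmb8 minus Psmb5 was 3.30 and 3.32 in WT and 3.34 and 3.30 in DKO. Psmb9 minus Psmb6 was 0.11 and 0.28 in WT and 0.20 and 0.17 in DKO, and Psmb10 minus Psmb7 was -0.15 and -0.084 in WT and -0.10 and -0.15 in DKO. The groups overlapped in all 3 pairs. The group means differed by 0.010 for Psmb8, by -0.012 for Psmb9 and by -0.0042 for Psmb10 (exact permutation test over samples, two-sided, p = 1.0 for each, where 2 against 2 samples cannot go below 0.333). With quantile normalization, tried after the data were seen, Psmb8 minus Psmb5 was 3.27 in both WT samples and 3.41 and 3.34 in DKO, so that these groups no longer overlapped (difference 0.11, exact permutation p = 0.333, the smallest possible), while the other pairs still overlapped (0.0072 for Psmb9 and 0.0032 for Psmb10). The 3 constitutive genes themselves were lower in DKO by about as much, Psmb5 by -0.19 (95% interval -0.38 to -0.0021, adjusted p = 0.183 in limma), Psmb6 by -0.14 and Psmb7 by -0.10.

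**Figure D3:**
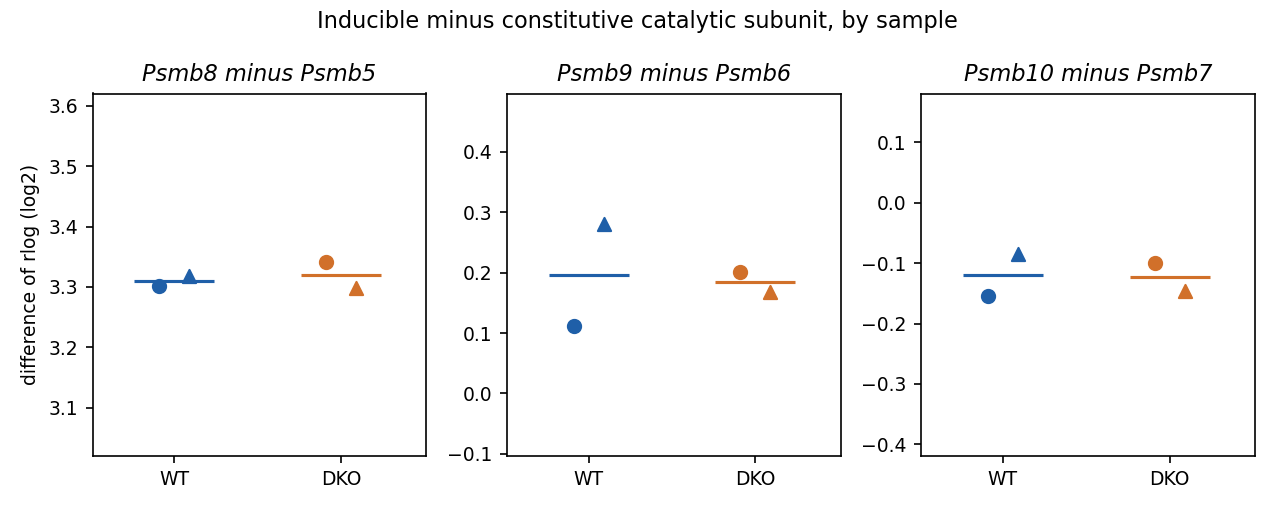
Rlog of each inducible catalytic subunit minus that of its constitutive counterpart (y axis, log2) in the 2 WT and 2 DKO samples, with circles for replicate 1, triangles for replicate 2 and lines for means. On the deposited scale shown, WT and DKO points overlap in all 3 panels, and the means differ by at most 0.012 in size.

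None of the other proteasome genes in the lists used here was called, and most of their estimates were slightly under 0. The lists do not hold every proteasome gene. Of 16 genes of the core particle and its assembly 0 passed the test, and all 16 had an estimate under 0 (14 of 16 with quantile normalization), with a median of -0.13, where 55.3% of all tested genes were lower. That median was -0.065 without DKO replicate 1, -0.20 without DKO replicate 2 and -0.074 with quantile normalization. The smallest p values were those of the core subunits Psmb1 (-0.23, SE 0.0907, adjusted p = 0.133 in limma), Psma6 (-0.20) and Psmb4 (-0.18). Of 17 genes of the regulatory particle that unfolds substrates 0 passed and 13 had an estimate under 0, with a median of -0.044. Psmd8 had the smallest p (-0.21, adjusted p = 0.122 in limma), and Psmd1 had the highest estimate (0.14, adjusted p = 0.363). The interferon-induced activator subunits Psme1 and Psme2, which open the core particle, were at -0.13 (adjusted p = 0.373 in limma) and -0.089, and 0 of 5 activators and inhibitors passed, 4 of them with an estimate under 0. DKO replicate 1 held the lowest value in 9 of the 10 class I pathway genes, in 14 of the 16 core genes and in 14 of the 17 regulatory genes, against 33.0% of all tested genes. Without DKO replicate 2, Psmb1 and Psmb4 were at -0.28 and -0.26, against -0.17 and -0.092 without DKO replicate 1.

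Among 17 other class I and class I-like heavy chains 1 rose and 1 fell, and H2-Q1 was under the filter at 2.83 to 2.89. Fcgrt, the neonatal Fc receptor that recycles IgG, rose from 8.93 and 8.91 to 9.23 and 9.30 (log2 fold change 0.35, SE 0.0836, adjusted p = 0.0160 in limma). Cd1d1, which presents lipids to NKT cells, fell from 8.73 and 8.88 to 8.28 and 8.47 (-0.43, SE 0.101, adjusted p = 0.0149 in limma). Mr1, which presents vitamin metabolites to MAIT cells, was at 0.31 (adjusted p = 0.131 in limma). The Mr1 difference was 0.45 without DKO replicate 2 and 0.16 without DKO replicate 1. Cd1d1 did not pass without WT replicate 2 (adjusted p = 0.136), Fcgrt did not pass without WT replicate 1 or 2 (adjusted p = 0.0743 and 0.109), and with no filter on low values neither passed (adjusted p = 0.156 and 0.0961). Genes close to the classical heavy chains were not called, with H2-Q4 at 0.13, H2-Q6 at 0.12, H2-Q7 at 0.025 and H2-T23 at 0.030.

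Of 10 other genes of peptide loading and trimming 1 fell and 0 rose, with a median of 0.046. The 1 was Sec61b, a subunit of the general translocon of the endoplasmic reticulum, at 10.77 and 10.97 in WT and at 10.52 and 10.55 in DKO (-0.33, SE 0.0866, adjusted p = 0.0238 in limma). It did not pass without WT replicate 2 (-0.24, adjusted p = 0.312), without the variance trend (adjusted p = 0.0581), with quantile normalization (adjusted p = 0.0721) or with no filter (adjusted p = 0.184). The glycoprotein sensor Uggt1 (0.14, adjusted p = 0.285 in limma) and the chaperone Calr (0.11, adjusted p = 0.580) had the next smallest p. The trimming peptidase Erap1 was at 0.043 and the tapasin-like editor Tapbpl at 0.061.

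Of 25 genes that govern class I transcription, from interferon receptors to the factors of the promoter boxes, 1 fell and 0 rose, with a median of -0.074. The count changed with the scaling: with quantile normalization 0 fell and 1 rose (Ifng, 0.34, adjusted p = 0.0279 in limma). It also changed without DKO replicate 2, a fit in which 1 sample stands for DKO and more genes over the whole table were called. There the differences were -0.42 for Socs1, -0.40 for Rfxap, -0.28 for Irf2, -0.29 for Atf1, -0.29 for Ifnar2 and 0.37 for Stat2. Ifngr2, the signalling chain of the interferon gamma receptor, was at 9.61 and 9.65 in WT and at 9.38 and 9.31 in DKO (-0.29, SE 0.0809, adjusted p = 0.0361 in limma). Leaving out WT replicate 1, WT replicate 2 or DKO replicate 2 ended this call (adjusted p = 0.135, 0.241 and 0.0637), and it was not made without the trend (adjusted p = 0.0710), with quantile normalization (adjusted p = 0.0702) or with no filter (adjusted p = 0.121). The cytokine gene Ifng itself stood at 12.42 and 12.57 in WT and at 12.76 and 12.72 in DKO (0.24, 95% interval 0.041 to 0.44, adjusted p = 0.110 in limma). The interferon factor Irf1 (0.033, adjusted p = 0.872 in limma) was not called. Atf1 (-0.24, adjusted p = 0.0780 in limma) and Ifnar2, a chain of the type I interferon receptor (-0.24, adjusted p = 0.0978), were not called either.

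Interferon-induced GTPases and MHC class II genes are the groups most like the class I pathway in their regulation. In the same samples most GTPase estimates were over 0, while the class II median lay under 0, as that of the class I members did. Of 15 GTPase genes of defence against intracellular microbes 6 rose and 0 fell, with a median log2 fold change of 0.28, beside -0.098 for the class I members. Without DKO replicate 1 these medians were 0.17 and -0.048. Irgm2 rose from 9.31 and 9.26 to 10.12 and 10.03 (0.79, SE 0.0814, adjusted p = 8.66e-05 in limma), Iigp1 from 10.76 and 10.82 to 11.61 and 11.27 (0.65), and Tgtp2 from 8.93 and 8.76 to 9.51 and 9.38 (0.60), with Gbp6 (0.48), Igtp (0.39) and Tgtp1 (0.32). With no filter on low values Irgm2 was the 1 of these that passed. Tgtp1 did not pass without either WT sample (adjusted p = 0.0735 and 0.268), nor Igtp without WT replicate 1 (adjusted p = 0.0668), nor Gbp6 without WT replicate 2 (adjusted p = 0.0625) or DKO replicate 1 (0.27, adjusted p = 0.0864). Whether the GTPases and the class I genes differ as groups was not tested.

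Of 10 MHC class II genes, which display peptides of taken-up proteins to CD4 T cells, 1 fell and 0 rose, with a median of -0.23. The median was -0.16 without DKO replicate 1, -0.28 without DKO replicate 2 and -0.11 with quantile normalization. Estimates went both ways, 6 under 0 and 4 over 0. H2-DMb1, which edits class II peptides, was at 11.59 and 11.72 in WT and at 11.35 and 11.38 in DKO (-0.29, SE 0.0830, adjusted p = 0.0403 in limma). It did not pass without WT replicate 1 or 2 (adjusted p = 0.0741 and 0.401), without the trend (adjusted p = 0.0822), with quantile normalization (adjusted p = 0.122) or with no filter (adjusted p = 0.172). The class II chain H2-Ab1 was at 15.66 and 15.72 in WT and at 15.28 and 15.45 in DKO (-0.32, 95% interval -0.63 to -0.0033, adjusted p = 0.184 in limma). H2-DMa was at -0.24 (adjusted p = 0.0818 in limma) and at -0.20 without DKO replicate 1. Its call changed without DKO replicate 2, a fit in which 1 sample stands for DKO.

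**Figure D4:**
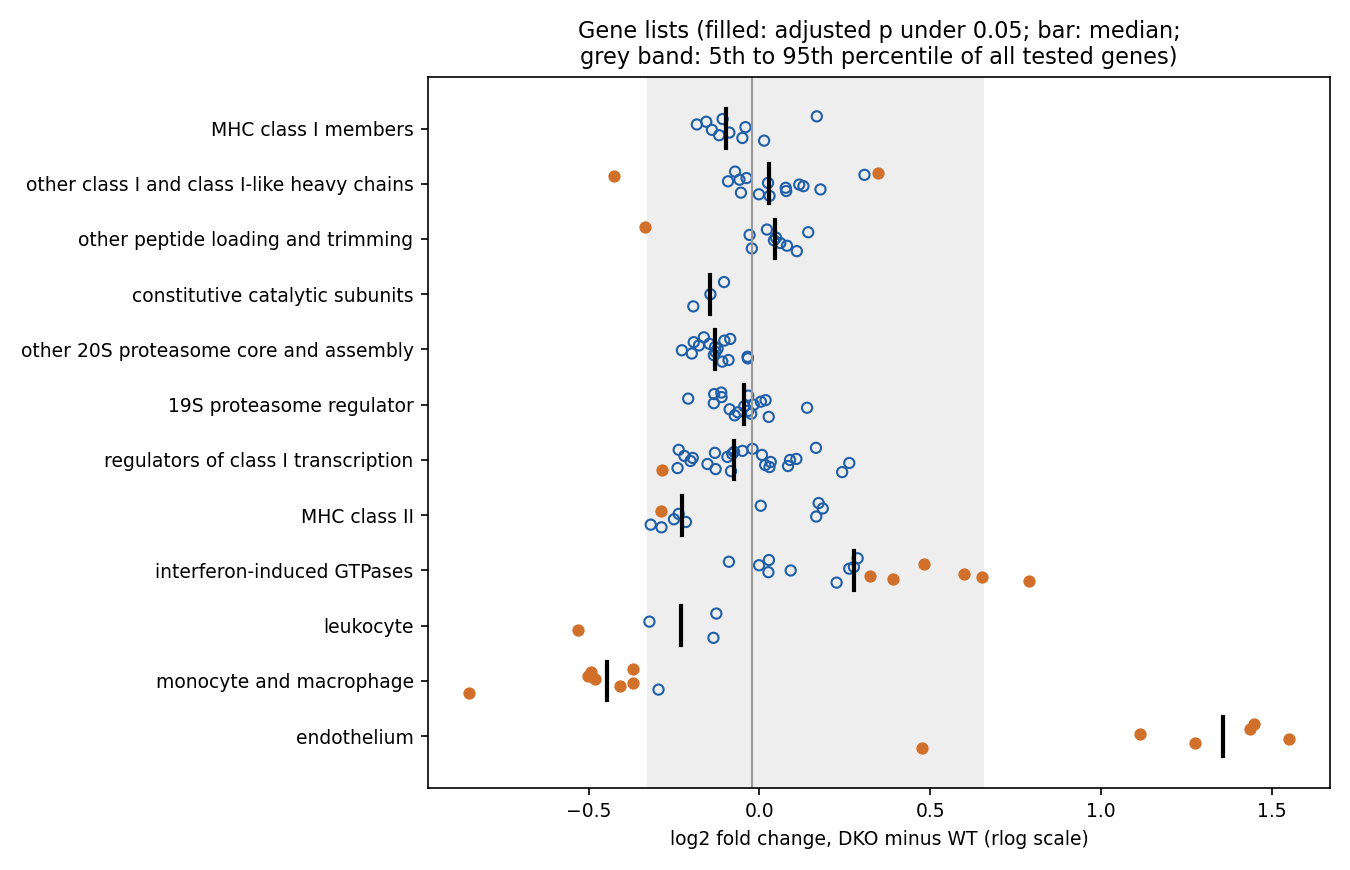
Log2 fold change (x axis, DKO minus WT on the rlog scale) of each tested gene of 12 lists, with filled points for adjusted p under 0.05, bars for list medians, a line at the median of all tested genes and a band for their 5th to 95th percentile. The class I members lie between -0.18 and 0.17 with no filled point, while 6 GTPase points are filled on the higher side and endothelial genes reach 1.55.

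Markers of several cell types differed between the groups. In bulk samples fewer cells of a type and less RNA per cell cannot be told apart. Summed on the linear scale and given as log2, the 4 leukocyte markers stood at 16.17 to 16.20 in WT and 15.95 to 16.03 in DKO, where 1 of 4 fell (Cd52, -0.53, adjusted p = 0.00195 in limma). The 8 monocyte and macrophage markers, of which 7 fell, were at 14.79 to 14.82 in WT and 14.28 to 14.43 in DKO, and the 9 neutrophil markers, which all fell, at 15.75 to 15.84 and 14.14 to 14.66. The 8 fibroblast and muscle markers and the 6 endothelial markers all rose, from 14.67 to 14.84 in WT to 15.66 to 15.79 in DKO, and from 11.18 to 11.37 to 12.15 to 12.23. Of 6 T cell markers 0 passed, with sums of 14.34 to 14.48 in WT and 14.16 to 14.32 in DKO. Of 6 markers of NK and CD8 T cells, which recognise class I, 1 rose (Gzma, 0.39, adjusted p = 0.0352 in limma). The sums, 12.69 to 12.76 in WT and 12.92 to 13.29 in DKO, follow mostly Gzma itself. Of 6 dendritic cell markers 1 rose (Zbtb46, 0.30), and 5 had an estimate over 0. Their sums, 12.44 to 12.50 in WT and 12.36 to 12.57 in DKO, follow mostly Ccr7, the 1 with an estimate under 0 (-0.037). Of 4 mast cell markers tested 3 rose (Mcpt2, 1.37, Mcpt1, 1.19, and Kit, 0.71), with sums of 10.92 to 11.15 in WT and 11.94 to 12.16 in DKO. Of 6 epithelial markers 0 passed (13.46 to 13.57 in WT, 13.43 to 13.55 in DKO). The part of these shifts in the class I values was not tested.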

How the data were processed

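The deposited values are regularized log2 (rlog) expression of 4 samples, made by the authors with DESeq2, per the submitters' processing notes, which also name STAR 2.5.4a, Subread 1.5.2 with featureCounts and GRCm38. The sources used here do not give the role of each tool. The table has 2 further columns that match no labelled sample and were not used, though they may have entered the authors' shrinkage. Symbols were matched for 48058 of 48526 identifiers in the GENCODE annotation of GRCm38. After leaving out genes under a mean rlog of 4, 13528 remained and were tested across all genes with limma 3.58.1 in R 4.3.3, using group as the only term, moderation with a trend (8.9 prior and 2 residual degrees of freedom), two-sided tests and Benjamini-Hochberg adjustment at 0.05. The code was tested on simulated data. The GAANNGAAA and GGGATTCCC motifs were added after the promoter windows had been seen. Replicates were numbered in accession order and are not paired. Gene lists are described by counts and medians. Members, lists and named genes (all members, the up to 3 genes of a list with the smallest p, those called where at most 6 were, and genes a sentence counts by name) were chosen with earlier results of these data known. H2-Q4, H2-Q6, H2-Q7, H2-T23, Ccr7, Erap1, Tapbpl, Ifng, Irf1, Irf2, Psmd1, Rfxap, Socs1 and Stat2 are named beyond that rule, with their values seen. Python 3.11.15 was used for tables and figures.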

Additional observations from a re-analysis of the deposited data

How the results depend on the processing

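Each test per gene was repeated with no filter, a mean rlog of at least 6, no variance trend, robust moderation, median centring, quantile normalization, limma's array weights, and leaving out 1 sample at a time. Members called stayed at 0 in all of these except without DKO replicate 2, where it was 1 (range 0 to 1 over samples left out). Over all genes, 1342 rose and 656 fell as reported. With no filter 181 rose and 25 fell, and with a mean rlog of at least 6, 878 rose. Without 1 sample, 1008 to 1660 rose and 324 to 1222 fell. The cause of these shifts was not tested. Some differences changed sign: with quantile normalization H2-D1 (0.13), Tap1 (0.012), Tapbp (0.039) and Psme2 (0.036), without DKO replicate 1 H2-D1 (0.0022) and Tapbp (0.068), without WT replicate 1 H2-K1 (-0.0098), and without DKO replicate 2 H2-K1 (-0.024) and Cd8b1 (-0.037), whose reported difference of 0.99 came from DKO replicate 2 alone. Over the samples left out, H2-K1 ran from -0.024 to 0.051, H2-D1 from -0.10 to 0.0022, Tapbp from -0.15 to 0.068 and Cd8b1 from -0.037 to 2.02. In these fits the lone sample is taken to vary as the group with both samples does. The direction of H2-K1, H2-D1, Tap1 and Tapbp thus changed with the setting, while B2m, Tap2, Psmb8, Psmb9, Psmb10 and Nlrc5 kept their sign in all 11 alternatives, but not their size. Without 1 sample, B2m ran from -0.20 to -0.032, Tap2 from -0.23 to -0.050, Psmb8 from -0.22 to -0.15, Psmb9 from -0.24 to -0.075, Psmb10 from -0.15 to -0.065 and Nlrc5 from 0.081 to 0.25. The median of the class I members ran from -0.14 (without DKO replicate 2) to -0.011 (quantile normalization). The inducible minus constitutive differences were recomputed without each sample (-0.097 to 0.072) and, added after the data were seen, with median centring, which leaves them as they are, and with quantile normalization, where Psmb8 minus Psmb5 was 0.11 against 0.010. With 2 samples a group, leaving 1 out always moves a mean by less than the SD, so this range shows no stability. No paired analysis was possible because the labels give no replicate numbers. The depth of the samples is unknown, and counting error could not be assessed.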

Other observations

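Receptors of lymphocytes and myeloid cells that read class I molecules were looked at beside their ligands. Of 8 such genes 1 fell and 0 rose, and Klra1 was under the filter in the mean (3.69 to 4.14). Pirb, an inhibitory receptor of myeloid cells that binds class I, fell from 11.35 and 11.21 in WT to 10.83 and 10.74 in DKO, a difference of -0.50 on the log2 scale (SE 0.0836, adjusted p = 0.00188 in limma). It did not pass with no filter on low values (adjusted p = 0.0865 in limma). In the same samples 7 of 8 monocyte and macrophage markers and all 9 neutrophil markers fell. Whether such shifts have a part in the Pirb difference was not tested. Klrd1, a chain of the receptors for the class I-like molecule H2-T23, was at 8.69 and 8.78 in WT and at 9.12 and 8.94 in DKO. The Klrd1 difference was 0.29 (adjusted p = 0.0656 in limma), and it passed with robust moderation (adjusted p = 0.0435). Its call also changed without DKO replicate 2, where 1 sample stands for DKO, and the difference was 0.20 without DKO replicate 1. Cd8b1, a chain of the coreceptor for class I, was at 6.04 and 6.10 in WT and at 6.04 and 8.09 in DKO (0.99, adjusted p = 0.193 in limma). DKO replicate 2 stood alone. Without DKO replicate 1 the difference was 2.02, a value that rests on this 1 DKO sample and does not describe the group.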
